A study of Rattus norvegicus with 26 samples.

Results

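The family of miR-130 and miR-301 was followed in rat liver through 3 array features, rno-miR-130a, rno-miR-130b and rno-miR-301a, out of 677 rat miRNAs on the array. The members were chosen by name, as the strands without a star, with earlier results of these data known. Of the 3, rno-miR-130a was detected on 26 of 26 arrays, rno-miR-301a on 3 and rno-miR-130b on 0 (the species prefix is left out from here on), so only miR-130a could be tested. After partial hepatectomy (PH) it passed the test at 1 time: 36 hours after 2/3 PH it was 1.38-fold the level of normal liver and 1.41-fold that of 1/3 PH liver. These calls were lost under some alternative settings and without single arrays, and 1 other setting gave a call at 12 hours after 2/3 PH, as given beside the results.

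The study asked how miRNAs differ between a small resection and the large one that is the classical trigger of liver regrowth. Right liver lobes of male Sprague-Dawley rats were profiled, 1 rat per array, on 26 single-colour (Cy3) arrays in 9 groups. Normal liver and each time after PH (6, 12, 24 and 36 hours) had 3 arrays, except 6 hours after 1/3 PH, which had 2. The study had set aside 1 array of 1/3 PH for its quality. The labels name no transgene, drug or age. The normal livers came from rats without PH, although their protocol label reads sham, so a comparison with them holds surgery and loss of mass together. The source names of some arrays put the harvest 1 or 2 hours later than the titles, which are followed here.

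MicroRNAs are short RNAs that, loaded into an Argonaute protein, pair with messenger RNAs mainly through the seed near their 5′ end and lower the output of their targets. miRNAs with the same seed form a family, because they can bind the same sites. The family of miR-130 and miR-301 is known from endothelial, stromal and fibrotic tissue. miR-301b, which has the same seed, is not among the 3 members and is described with the neighbours of the family.

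The mature sequences are shown because the seed defines the family and the bases outside it are what separate its members on an array. They are from RefSeq on build GRCr8, 5′ to 3′, with the seed (bases 2 to 8) in capitals, and 2 of the 3 members had an entry. The starless array names were read as the -3p arms.
miR-130a-3p: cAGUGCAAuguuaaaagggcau
miR-130b-3p: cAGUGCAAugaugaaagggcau
miR-301b-3p: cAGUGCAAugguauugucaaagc

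miR-130a and miR-130b are identical in 20 of 22 bases and share the first 10. Counted from 1 at the 5′ end of miR-130a, the 2 substitutions are U11A and A13G, both outside the seed. miR-301b shares the first 10 bases as well but only 13 of 22 in all. miR-130a is encoded at chr3:90229240-90229261 on the minus strand, within the hairpin of Mir130a, which overlaps Mir3590 on the opposite strand. miR-130b lies at chr11:97384430-97384451 and miR-301b at chr11:97384077-97384099, both on the plus strand, and their hairpins are 269 bases apart within the gene 2610318N02Rikl. The hairpin of Mir301a, on chromosome 10, overlaps the genes Ska2 and Prr11. The 3 members therefore come from 3 chromosomes.

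4 other miRNAs on the array carry a seed shifted by 1 base against that of the family, and are shown because they share 6 of its 7 seed bases. In miR-148b and miR-152 the shared bases are AGUGCA, and in miR-19a and miR-19b, members of the miR-17~92 cluster or its copy, they are GUGCAA.
miR-148b-3p: uCAGUGCAucacagaacuuugu
miR-152-3p: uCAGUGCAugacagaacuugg
miR-19a-3p: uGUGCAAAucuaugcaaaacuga
miR-19b-3p: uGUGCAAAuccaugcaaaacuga

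The arrays fell on 6 slides read on 3 scan days. miR-122, the defining hepatocyte miRNA, made up 47.6% to 59.9% of the signal of detected miRNAs on the 26 arrays. The total signal was 38371 to 67278 signal units on 25 arrays and 11768 on 1 array, replicate 2 of 12 hours after 1/3 PH, which also had the fewest detected miRNAs (91, against 118 to 155). Signals were divided by the 75th percentile, on the same array, of 109 probes that stood well above background throughout, and brought back to signal units by 1 common factor, which is called scaled signal here. The number of arrays per group limits the precision.

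In normal liver the log2 scaled signal of miR-130a was 7.35, 7.13 and 7.06. At 6 hours after 1/3 PH it was 7.33 and 7.31, and at 6 hours after 2/3 PH 7.26, 7.26 and 7.45. The operated livers of 6 hours thus lay within or slightly above the normal range, and the 2 operations overlapped. At 12 hours, 1/3 PH gave 7.41, 7.19 and 7.37, and 2/3 PH gave 7.20, 7.32 and 7.45. At 24 hours, 1/3 PH gave 7.27, 7.23 and 7.25, and 2/3 PH gave 7.27, 7.40 and 7.01. Both operations overlapped at both times, and the array at 7.01 was the lowest of all 26. At 36 hours after 1/3 PH the values were 7.25, 7.11 and 7.09, inside the normal range. At 36 hours after 2/3 PH they were 7.79, 7.40 and 7.74, all above the 3 normal livers and the 3 livers of 1/3 PH at the same time. How many other miRNAs separated in this way was not counted.

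**Figure D1:**
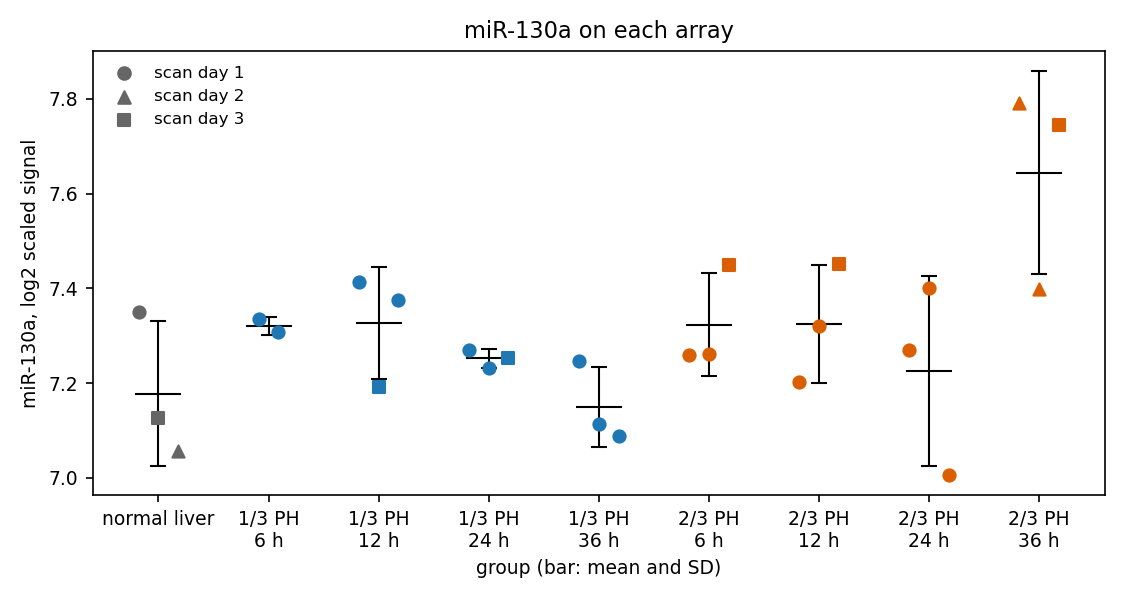
Log2 scaled signal of miR-130a (vertical axis) on each of the 26 arrays, by group (horizontal axis), with bars for the group mean and SD and the symbol giving the scan day. The 23 arrays outside 36 hours after 2/3 PH lie between 7.01 and 7.45, and the 3 arrays of that group lie at 7.40 to 7.79, none of them scanned on day 1.

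Leaving 36 hours after 2/3 PH aside, miR-130a had an SD of 0.12 (log2, n = 23 arrays). Over all 26 arrays the SD was 0.18, which ranked 19 from the lowest among the 82 miRNAs detected on every array, whose median SD was 0.27. The miRNA thus varied less than most of this set. On the linear scale its mean scaled signal was 145 ± 15.8 signal units in normal liver (SD, n = 3), 142 ± 8.48 at 36 hours after 1/3 PH (SD, n = 3) and 201 ± 28.6 at 36 hours after 2/3 PH (SD, n = 3).

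Ordered by mean log2 scaled signal, 36 hours after 2/3 PH came first (7.64), followed by 12 hours after 1/3 PH (7.33), 12 hours after 2/3 PH (7.32), 6 hours after 2/3 PH (7.32), 6 hours after 1/3 PH (7.32), 24 hours after 1/3 PH (7.25), 24 hours after 2/3 PH (7.23), normal liver (7.18) and 36 hours after 1/3 PH (7.15). The 8 groups below the first spanned only 0.18. Of the 8 neighbouring pairs in this order, 7 overlapped in their values. In 2 pairs the means differed by more than the larger SD of the pair, namely the first and second groups (0.32 against 0.21) and 6 against 24 hours after 1/3 PH (0.069 against 0.019). The second of these rests on 2 arrays at 6 hours. Replicate 2 of 36 hours after 2/3 PH, at 7.40, was below the highest array of 12 hours after 1/3 PH at 7.41.

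Against normal liver, miR-130a rose at 36 hours after 2/3 PH by a log2 fold change of 0.47 (SE 0.12, 95% interval 0.21 to 0.72, limma adjusted p = 0.00943). The fold was 1.38 (95% interval 1.16 to 1.65). In that comparison 18.8% of the 144 tested miRNAs passed the test in either direction (11.1% higher, 7.64% lower), and miR-130a was 33rd by size of the log2 fold change from the top. The median log2 fold change of all tested miRNAs was 0.06. The direction against zero held under each alternative tried, though some of these could change only the SE and adjusted p. The call was lost with the 75th percentile over all probes (0.38, SE 0.50, adjusted p = 0.984) and in a fit of only the groups compared (0.47, adjusted p = 0.084). With normexp background correction, where the median of all miRNAs moved to 0.64, the value of miR-130a was 0.51 (adjusted p = 0.171) and so lay below that median.

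The comparison of the operations at matched times asks what goes with the larger loss of mass. At 36 hours miR-130a was higher after 2/3 PH than after 1/3 PH by 0.49 (log2, SE 0.12, 95% interval 0.24 to 0.75, limma adjusted p = 0.0132), a fold of 1.41 (95% interval 1.18 to 1.69). In that comparison 15.3% of the tested miRNAs passed in either direction (10.4% higher, 4.86% lower), miR-130a was 23rd from the top, and the median of all tested miRNAs was -0.12. With normexp the median was 0.56 and miR-130a was at 0.51 (adjusted p = 0.243), also below it. The call was lost as well with the 75th percentile over all probes (0.98, SE 0.50, adjusted p = 0.32, median of all 0.36) and in a fit of only the groups compared (0.49, adjusted p = 0.078). The call was lost without replicate 1 of 36 hours after 2/3 PH in both comparisons (0.39, adjusted p = 0.0574 against normal liver, and 0.42, adjusted p = 0.0903 against 1/3 PH), without normal liver replicate 3 in the first (0.41, adjusted p = 0.0548) and without replicate 3 of 36 hours after 1/3 PH in the second (0.46, adjusted p = 0.0633).

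The 2 probes of miR-130a gave the same picture. Taken alone, the brighter probe was higher by 0.47 against normal liver and 0.49 against 1/3 PH (log2), and the dimmer probe by 0.46 and 0.51. The ratio of brighter to dimmer probe stayed between 1.81 and 2.42 on the 26 arrays, with a median of 2.16. The summed signal before scaling was 38.99 signal units on the dim array of 12 hours after 1/3 PH and 123 to 251 on the others, and no spot of miR-130a was saturated.

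The 36 hour arrays of the operations were not read together. The 3 arrays of the smaller resection were scanned on day 1, whereas of the larger resection 2 were scanned on day 2 and 1 on day 3, so no scan day held both. On scan day 2 the arrays of 36 hours after 2/3 PH exceeded the normal liver by 0.54 (log2, 2 arrays against 1), and on scan day 3 by 0.62 (1 against 1). These normal livers read 7.06 and 7.13, below that of scan day 1 at 7.35. With 1 normal liver per day, the day and that animal cannot be told apart. On scan day 3 the arrays of 6 and 12 hours after 2/3 PH, times without a call, also exceeded the same normal liver, by 0.32 each. With scan day as a fixed block the difference was 0.52 against normal liver (limma adjusted p = 0.00648) and 0.61 against 1/3 PH (adjusted p = 0.0313), the second resting on normal livers and other groups that span the days. With slide as a fixed block the first was 0.54 (adjusted p = 0.102), and the second could not be estimated.

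At the earlier times miR-130a passed the limma test in none of the 6 comparisons with normal liver, and neither did 36 hours after 1/3 PH. After 1/3 PH the log2 fold change against normal liver was 0.14 at 6 hours (adjusted p = 0.819), 0.15 at 12 hours (adjusted p = 0.444), 0.07 at 24 hours (adjusted p = 0.926) and -0.03 at 36 hours (95% interval -0.29 to 0.23, adjusted p = 0.945). After 2/3 PH it was 0.15 at 6 hours (adjusted p = 0.703), 0.15 at 12 hours (adjusted p = 0.569) and 0.05 at 24 hours (95% interval -0.21 to 0.31, adjusted p = 0.843). The share of all tested miRNAs that passed was 0%, 4.17%, 0.694% and 0% at the 4 times after 1/3 PH, and 0%, 6.94% and 18.1% at the first 3 times after 2/3 PH. At 24 hours after 2/3 PH, when 26 miRNAs passed, miR-130a was therefore not one of them. On scan day 1, which held 1 normal liver, each comparison with normal liver except 12 hours after 1/3 PH (0.04) gave a difference below zero (-0.03 to -0.20), and that normal liver was the highest of the 3. On scan day 3, with 1 array against 1 normal liver each, the differences were above zero, at 0.32 for 6 hours and 0.32 for 12 hours after 2/3 PH, 0.07 for 12 hours and 0.13 for 24 hours after 1/3 PH. The sign thus differed between the days for 6 and 12 hours after 2/3 PH and 24 hours after 1/3 PH. For 12 hours after 1/3 PH it was above zero on both. Each of these days held 1 normal liver, so the day and that animal cannot be told apart. At 12 hours the value also rested on the normalization: with quantile normalization it was 0.38 after 1/3 PH (adjusted p = 0.0518) and 0.38 after 2/3 PH (adjusted p = 0.0472), and with the deposited log2 values 0.40 (adjusted p = 0.145) and 0.37 (adjusted p = 0.242).

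Between the operations the difference of miR-130a was 0.00 at 6 hours (95% interval -0.29 to 0.29, limma adjusted p = 0.994), 0.00 at 12 hours (95% interval -0.26 to 0.26, adjusted p = 0.996) and -0.03 at 24 hours (95% interval -0.28 to 0.23, adjusted p = 0.947). Of all tested miRNAs 0%, 0% and 2.78% passed at these times. The point estimate at 36 hours (0.49) lay outside these intervals, but its own 95% interval (0.24 to 0.75) overlapped those at 6 and 12 hours. The gap was not called wider at 36 hours than at 24 or 6 hours, as given below. With the 75th percentile over all probes the difference at 6 hours was -1.27 (limma adjusted p = 0.0467), where the median of all tested miRNAs was -1.32.

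Late (24 and 36 hours) against early (6 and 12 hours) levels did not separate. The late minus early change was -0.12 after 1/3 PH (log2, SE 0.093, limma adjusted p = 0.553) and 0.11 after 2/3 PH (SE 0.087, adjusted p = 0.362), where 9.72% and 34.7% of all tested miRNAs passed. The difference between these changes was 0.23 (SE 0.13, adjusted p = 0.355), in a comparison where 6.94% passed. In contrasts added after the values had been seen, 36 hours after 2/3 PH was higher than 24 hours by 0.42 (SE 0.12, adjusted p = 0.145), and the gap between the operations was wider at 36 than at 24 hours by 0.52 (SE 0.17, adjusted p = 0.541) and than at 6 hours by 0.49 (SE 0.19, adjusted p = 0.184). Their unadjusted p values were 0.00302, 0.00752 and 0.0153, and 0.694%, 0.694% and 4.17% of all tested miRNAs passed. A change with time after 2/3 PH was therefore not called at the adjusted threshold.

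**Figure D2:**
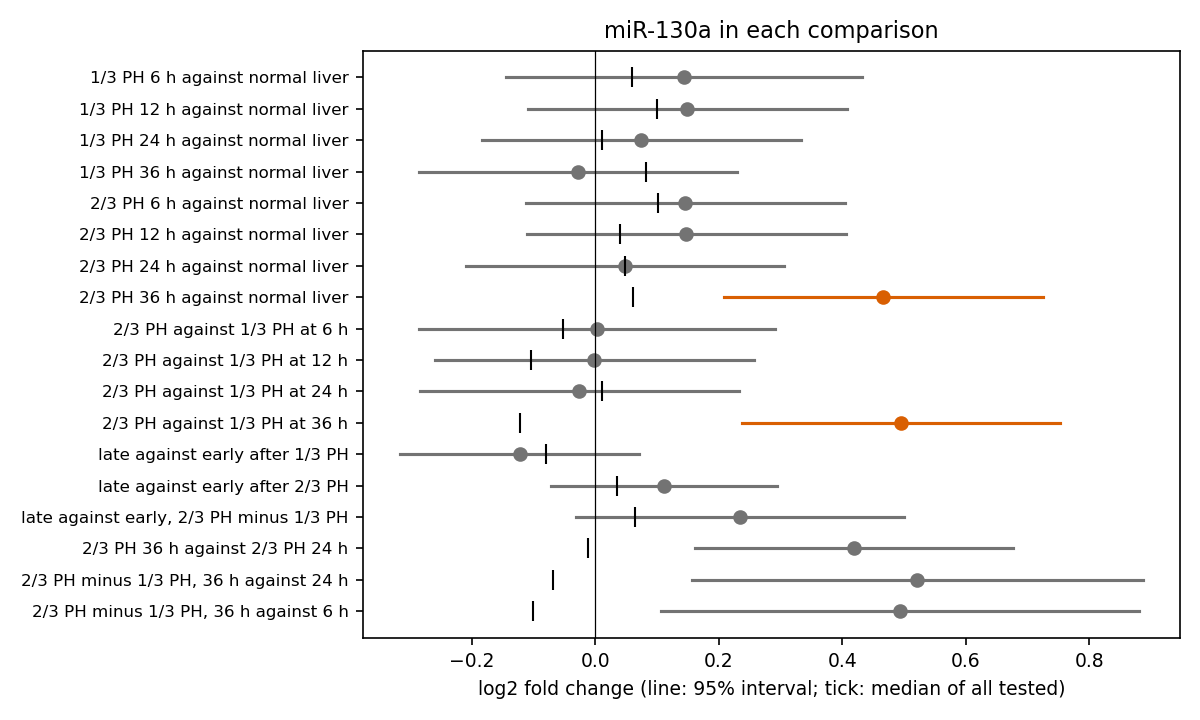
Log2 fold change of miR-130a in each of the 18 contrasts (rows), with its 95% interval as a line and the median of all 144 tested miRNAs as a tick, on a linear axis of log2 units. The 2 comparisons in orange, 36 hours after 2/3 PH against normal liver (0.47) and against 1/3 PH (0.49), passed the test.

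miR-301a was close to the limit of the array. The software called it detected on 3 arrays, normal liver replicate 2, replicate 3 of 6 hours after 2/3 PH and replicate 3 of 24 hours after 1/3 PH. Its brighter probe read 7.32, 5.81 and 6.94 signal units there, and 1.86 to 6.85 on the 23 arrays without a call. The called and uncalled arrays therefore overlapped in signal. Of 10 spots of that probe, 4, 0 and 4 were well above background on the called arrays in the same order, and 0 of the dimmer probe. In the last 2 of them the brighter probe was under the array's dimmest probe still called above background (5.81 against 8.25, and 6.94 against 7.38 signal units). By group, the brighter probe read 5.48 to 7.32 signal units in normal liver, 3.83 to 5.84 at 6 hours, 1.97 to 4.88 at 12 hours, 6.32 to 6.94 at 24 hours and 4.79 to 5.63 at 36 hours of the 1/3 PH series. In the 2/3 PH series it read 1.86 to 5.81 at 6 hours, 3.48 to 4.59 at 12 hours, 2.67 to 5.97 at 24 hours and 4.57 to 5.35 at 36 hours. The arrays that carried the call were all on slide 5, where it was made on 3 of 5 arrays and on 0 of the other 21. The dimmest probe still called above background had 6.48 to 8.25 signal units on slide 5 and 8.02 to 19.4 elsewhere. Within slide 5 it had 6.54 to 8.25 on the arrays with the call, and 6.48 and 7.99 on those without. The calls fell in 3 groups. Slide 5 was read on scan day 3, and why the calls fell on it was not tested. The dimmer probe read between -2.78 and 1.41 signal units on all arrays. No fold is given, because no group had the miRNA on every array.

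miR-130b was not detected on any array. Its brighter probe lay between -3.64 and 0.947 signal units and its dimmer probe between -5.28 and -1.32, where a value below zero means a spot dimmer than the fitted background. At most 1 of 10 spots of a probe was well above background on any array. miR-130b was thus not detectable at the sensitivity of these arrays in normal or operated liver, which is not to say that it was absent. The deposited table of log2 values held miR-130b at its lowest value in all 26 columns, miR-301a in 23 and miR-130a in 0.

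**Figure D3:**
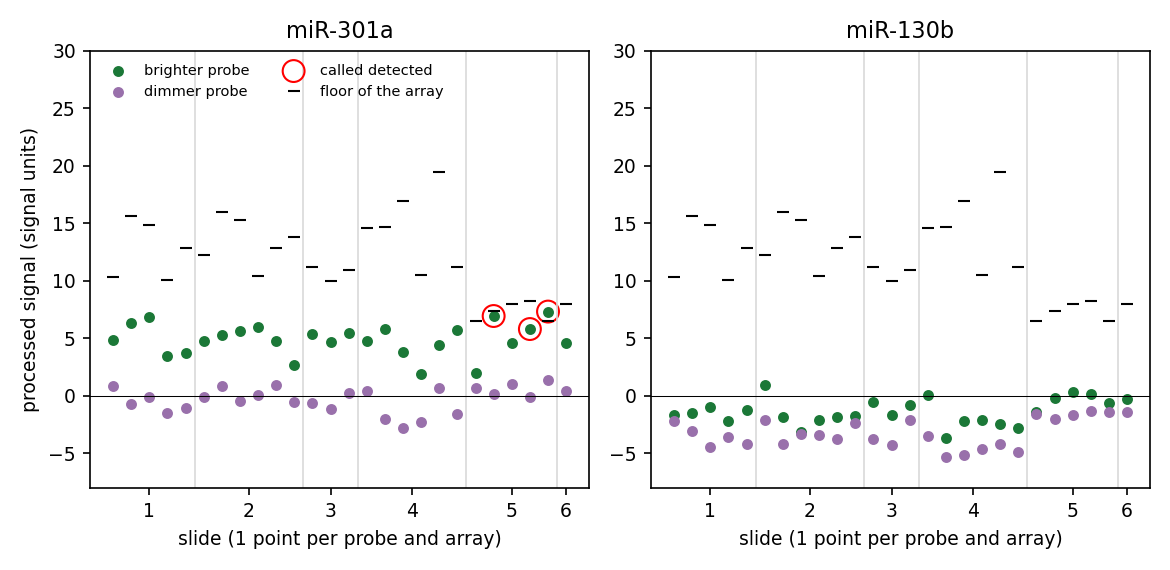
Processed signal (signal units, vertical axis) of the brighter and dimmer probe of miR-301a (left) and miR-130b (right) on each array, ordered by slide (horizontal axis). Short dashes mark the dimmest probe still called above background on the array, and the 3 arrays with a detection call for miR-301a are circled, all on slide 5.

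The partners that are made from the same hairpins or the same cluster were hardly seen. Of miR-130a*, miR-130b*, miR-301a*, miR-301b and miR-301b*, only miR-130b*, the passenger strand of miR-130b, was called on an array, replicate 1 of 24 hours after 1/3 PH. None of the 5 entered the test. The family signal that could be measured in this liver therefore came from miR-130a, with the weak signal of miR-301a beside it.

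The miRNAs with a shifted seed were detected on 24 to 26 arrays and did not pass the test at 36 hours. Against normal liver, 0 of the 4 passed after 2/3 PH, beside 18.8% of all tested miRNAs. The log2 fold change was -0.44 for miR-148b-3p (SE 0.25, limma adjusted p = 0.218), 0.16 for miR-152 (SE 0.27, adjusted p = 0.757), 0.72 for miR-19a (SE 0.31, adjusted p = 0.104) and 0.26 for miR-19b (SE 0.19, adjusted p = 0.359). Against 1/3 PH 0 of 4 passed, beside 15.3% of all, with 0.84 for miR-19a (SE 0.31, adjusted p = 0.0801) and -0.16 to 0.22 for the others. At such shares, 0 of 4 does not set these miRNAs apart from the rest. Their median was 0.21 against normal liver and 0.06 against 1/3 PH, beside 0.06 and -0.12 for all tested miRNAs.

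The clusters miR-17~92 and miR-106b~25, known to accompany cell cycle entry, were listed beside the family because miR-19a and miR-19b belong to the first. Of their 9 listed members, 5 were higher at 36 hours after 2/3 PH than in normal liver and 0 lower, and 6 were higher than after 1/3 PH and 0 lower. Of all tested miRNAs, 11.1% were higher against normal liver and 10.4% against 1/3 PH. miR-93 was higher by 1.15 against normal liver (SE 0.13, limma adjusted p = 2.1e-06) and miR-106b by 0.74 (SE 0.15, adjusted p = 0.0018). miR-18a, detected on 14 arrays, was higher by 1.80 (SE 0.33, adjusted p = 0.000677) and miR-17-5p by 1.07 (SE 0.25, adjusted p = 0.00401). Signals under the array's dimmest probe called above background were set to that value, so the size for miR-18a may depend on these values. The list's median was 0.72 against normal liver and 0.67 against 1/3 PH, beside 0.06 and -0.12 for all tested miRNAs. The study drew its attention to part of this list from these samples, so the list is not independent evidence of its direction. Its second count fell to 1 without replicate 1 of 36 hours after 2/3 PH or without replicate 3 of 36 hours after 1/3 PH, and to 3 without replicate 2 of the latter.

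**Figure D4:**
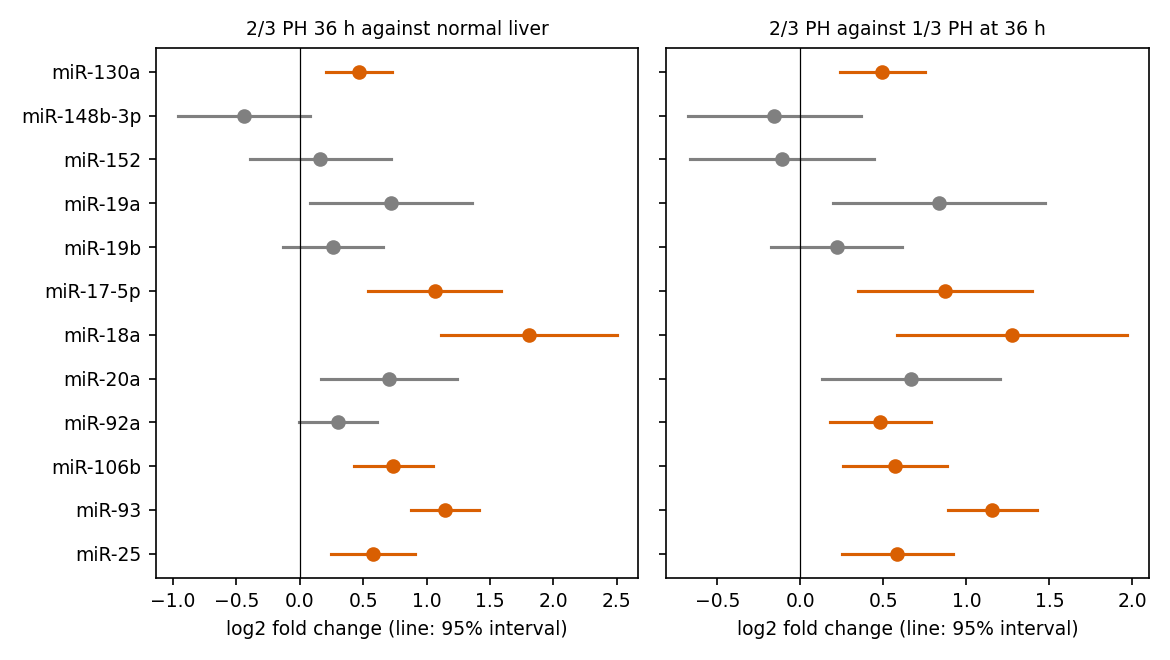
Log2 fold change (horizontal axis, line for the 95% interval) of miR-130a, the 4 miRNAs with a shifted seed and the other members of the miR-17~92 and miR-106b~25 clusters at 36 hours after 2/3 PH, against normal liver (left) and 1/3 PH (right). Orange marks the miRNAs that passed the test, with miR-130a at 0.47 and 0.49 and miR-93 at 1.15 and 1.16.

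The miRNAs whose levels ran most like miR-130a were found by Pearson r over the arrays on which both were detected, among 118 miRNAs. miR-15b, which belongs to the family of miR-16, came first at r = 0.79 over 26 arrays, followed by miR-25 (0.57, 26 arrays), miR-139-3p (0.53, 26 arrays), miR-7a (0.51, 26 arrays) and miR-93 (0.51, 25 arrays). The arrays share groups and scaling, so r is a description and has no p. Without the 3 arrays of 36 hours after 2/3 PH, r was 0.56 for miR-15b, 0.34 for miR-25, 0.39 for miR-139-3p, -0.13 for miR-7a and 0.03 for miR-93. The likeness to miR-7a and miR-93 thus rested on those 3 arrays. The lowest r was that of miR-22 (-0.49, 26 arrays).

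In a bulk liver sample a change in the number of cells of a type and a change in RNA per cell cannot be told apart, so cell type lists were read in the same comparisons. In these, 18.8% of all tested miRNAs passed in either direction against normal liver and 15.3% against 1/3 PH. A count of 0 in lists this short does not set them apart from that share. For the hepatocyte list, 0 of 3 tested miRNAs passed in either comparison, and the summed scaled signal was 36766 to 41802 signal units at 36 hours after 2/3 PH, 35298 to 42107 in normal liver and 38369 to 44722 at 36 hours after 1/3 PH. For the endothelial list, 0 of 1 tested passed (of 2 listed), with sums of 492 to 553, 561 to 694 and 562 to 702 in the same order. The first of these ranges lay below those of both other groups. In all sums, signals under the array's dimmest probe called above background were set to that value. This bears on miR-126* here, detected on 3 arrays, and on miR-144 of the red cell list, detected on 1. For stellate and smooth muscle, 0 of 4 tested passed (of 5 listed, miR-145 never being detected), with sums of 277 to 300.7, 275 to 354 and 286 to 386.

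For the leukocyte list, 1 of 4 tested miRNAs, the lymphocyte miRNA miR-150, was lower against normal liver (-0.74, SE 0.16, limma adjusted p = 0.00247) and 0 passed against 1/3 PH. Of all tested miRNAs, 7.64% were lower against normal liver and 4.86% against 1/3 PH, so 1 call among 4 does not set this list apart. The sums were 187 to 198 signal units at 36 hours after 2/3 PH, 209 to 257 in normal liver and 183 to 270 at 36 hours after 1/3 PH. Of the 6 listed, miR-142-5p was never detected and miR-155 had no entry under that name on the array. For the red cell list 0 of 1 tested passed, with sums of 73.9 to 99.2, 98.0 to 121 and 73.5 to 132. Of the 3 listed, miR-144 was not tested and miR-486 had no entry under that name on the array. For the biliary and epithelial list, of 3 tested miRNAs, miR-200a (0.90, SE 0.30, adjusted p = 0.0364), miR-200b (1.34, SE 0.29, adjusted p = 0.00247) and miR-429 (1.28, SE 0.29, adjusted p = 0.0036) were all higher against normal liver, beside 11.1% of all tested miRNAs. miR-200a was detected on 21 arrays and miR-429 on 22. Signals under the array's dimmest probe called above background were set to that value, so the sizes for these miRNAs may depend on it. Against 1/3 PH 1 of 3, miR-200b (0.90, SE 0.29, adjusted p = 0.0413), was higher, beside 10.4% of all, and miR-200a (0.26, adjusted p = 0.578) and miR-429 (0.71, adjusted p = 0.129) did not pass. Leaving out 1 array changed this count to between 0 and 2. Their sums were 96.1 to 146 signal units at 36 hours after 2/3 PH, 34.4 to 65.3 in normal liver and 49.8 to 112 at 36 hours after 1/3 PH, the first and last of which overlapped, and the other 2 listed, miR-200c and miR-141, were never detected. The part of these cells in the level of miR-130a was not tested.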

How the data were processed

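miRNA was measured in 26 rat livers on Agilent 1-colour arrays. The authors deposited background-subtracted, detrended intensity values of every spot, which per the file headers came from Agilent Feature Extraction 10.7.3.1 and were not normalized between arrays. Deposited log2 values of the same arrays came in a matrix whose normalization is not given in the sources used here and which served only as an alternative. Spots that the software marked as non-uniform or as population outliers were dropped, except where this would have emptied a probe. Spots were averaged per probe, probes summed per miRNA (677 miRNAs, 1644 probes, 13540 spots), and every array was scaled by the 75th percentile of 109 probes well above background on more than 0.5 of their spots on all arrays, then it was multiplied by the geometric mean of these percentiles (225 signal units). Values under that of the array's dimmest probe called above background were set to it, and log2 was taken. Detection was the software's call.

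The 144 miRNAs called in all arrays of 1 or more groups entered 1 limma 3.58.1 fit (R 4.3.3, data.table version 1.17.8; lmFit and eBayes) of 9 groups, with 17 residual degrees of freedom, prior degrees of freedom 2.32 and prior SD 0.23, and Benjamini-Hochberg adjustment within each contrast at a threshold of 0.05. Python 3.11.15, numpy 2.4.6, pandas 2.3.3 and matplotlib 3.10.9 made the tables and figures. The procedure was tested on simulated data. Groups follow the sample titles. The members and lists were chosen with earlier results of these data known. The 3 members are always named, listed miRNAs mainly where they passed the test (those with a shifted seed are given in full), and the 5 miRNAs of highest Pearson r with miR-130a among those detected on at least 20 arrays, with the lowest named after its value was seen. 38 of 41 listed names were on the array. Alternatives were quantile normalization, the percentile over all probes, normexp (offset 50) on median spot and background signals, the software's total gene signal, single probes, the deposited values, other detection filters, a floor of 1 signal unit, slide or scan day as a block, fits of only the groups compared, folds under 0.8 or over 1.2 for the lists, and leaving out each array.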

Additional observations from a re-analysis of the deposited data

How the results depend on the processing

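Signal over background limits what can be said of miR-301a and miR-130b, and 2 or 3 arrays per group limit the rest. The rise of miR-130a at 36 hours after 2/3 PH kept its sign in every alternative run. The estimate itself could not move with other detection filters, a floor of 1 signal unit or a fit of only the groups compared. Nor could it move when an array of another group was left out. Only its SE and adjusted p could change in these runs. Against normal liver it no longer passed with the 75th percentile over all probes (log2 fold change 0.38, adjusted p = 0.984), normexp (0.51, adjusted p = 0.171), slide as a fixed block (0.54, adjusted p = 0.102) and a fit of only the groups compared (0.47, adjusted p = 0.084), and it passed in the other 10, with adjusted p from 0.00176. Against 1/3 PH it no longer passed with the percentile over all probes (0.98, where the median of all miRNAs was 0.36; adjusted p = 0.32), normexp (0.51, adjusted p = 0.243) and only the groups compared (0.49, adjusted p = 0.078), and it passed in the other 10, with adjusted p from 0.00135. Leaving out 1 array gave 0.39 to 0.59 (adjusted p 0.00404 to 0.0574) and 0.42 to 0.62 (adjusted p 0.00422 to 0.0903), and the call was lost without normal liver replicate 3 (first comparison), without replicate 3 of 36 hours after 1/3 PH (second) and without replicate 1 of 36 hours after 2/3 PH (both). The cause of these losses was not tested. Values near zero that were not called changed sign. With the percentile over all probes, 12 hours against normal liver gave -0.91 after 1/3 PH and -0.17 after 2/3 PH, 24 hours after 2/3 PH gave -0.41, and 2/3 PH against 1/3 PH gave -1.27 at 6 hours (adjusted p = 0.0467, median of all miRNAs -1.32) and 0.73 at 12 hours. With the deposited values, 1/3 PH against normal liver gave -0.18 at 6 hours and 0.0057 at 36 hours, and 2/3 PH against 1/3 PH gave 0.021 at 24 hours. With normexp the last 2 were 0.0013 and 0.016. With quantile normalization the operations differed by 0 at 12 hours and 0.022 at 24 hours. At 6 hours they differed by -0.030 with the total gene signal and -0.018 with the brightest probe, and at 12 hours by 0.0075 with the brightest probe, 0.0086 with slide as a random block and 0.021 as a fixed block. With scan day as a block 24 hours after 2/3 PH was at -0.0074 against normal liver. Leaving out 1 array gave -0.089 to 0.058 for 36 hours after 1/3 PH and -0.039 to 0.16 for 24 hours after 2/3 PH against normal liver, and -0.061 to 0.034 at 6 hours, -0.069 to 0.059 at 12 hours and -0.11 to 0.084 at 24 hours between the operations. 12 hours after 2/3 PH passed against normal liver with quantile normalization (0.38, adjusted p = 0.0472). The dimmer probe and the 3 contrasts of 36 hours with earlier times were chosen after seeing the data. Of these, 36 against 24 hours after 2/3 PH passed without replicate 2 of 36 hours after 2/3 PH (0.54, adjusted p = 0.0327; range over arrays left out 0.31 to 0.54), and the gap between the operations at 36 against 6 hours with the percentile over all probes (2.25, adjusted p = 0.021, median of all miRNAs 1.65). The count of miR-17~92 and miR-106b~25 members past the test was 0 to 9 against normal liver and 0 to 8 against 1/3 PH, and that of the biliary and epithelial list 0 to 3 and 0 to 2. No paired analysis was possible because the labels number only the normal livers, and the other titles carry animal tags that no 2 groups share.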
